A study of Mus musculus with 6 samples.

Results

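The genes of the proteasome were compared in the bone marrow of adult female F1 hybrids from 2 crosses to FVB/NJ. Members were all genes whose symbol is Psma, Psmb, Psmc, Psmd or Psme followed by a number and nothing else, read from probe sets that carry exactly 1 symbol: 42 of 18193 genes, and 88 of 45037 probe sets. Psmc3ip and Psme3ip1 begin the same way but encode no subunit and were left out, and Psme2 has no probe set with a single symbol. The tested marrow came from (AKR/J x FVB/NJ)F1 females (AKR F1 below, 3 arrays) and was set against that of (DBA/2J x FVB/NJ)F1 females (DBA F1 below, 3 arrays). The labels name no treatment other than Avertin anesthesia before death, and the question was how the 2 genotypes differ at baseline. They do not tie arrays to animals, so p-values measure only the spread among 6 samples, which may be technical.

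The proteasome degrades proteins that carry ubiquitin chains. Its core is a barrel of stacked rings, in which outer rings of alpha subunits (Psma genes) gate the entry and inner rings of beta subunits (Psmb genes) hold the proteolytic sites. A regulatory particle docks on the barrel: its base of ATPases (Psmc genes) unfolds the substrate, and its lid (among the Psmd genes) removes ubiquitin. In cells of the immune system, and in other cells under interferon gamma, the inducible subunits Psmb9, Psmb10 and Psmb8 take the places of Psmb6, Psmb7 and Psmb5 in newly built barrels, giving the immunoproteasome, which favours peptides fit for MHC class I. Psme gene products are activators that can replace the regulatory particle.

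Values are log2 expression values, and every difference is AKR F1 minus DBA F1 on that scale with the standard error (SE) of limma's fit over all genes. A gene was read from its brightest probe set and counted as higher or lower at a Benjamini-Hochberg adjusted p under 0.05 over all 18193 genes. Array medians lay between 5.14 and 5.19. Markers of marrow cells were present in both groups, and several lists separated the groups: the mean of 9 neutrophil genes was 13.70 to 13.75 in AKR F1 and 13.22 to 13.67 in DBA F1, and that of 8 erythroid genes 10.90 to 10.95 in AKR F1 and 10.70 to 10.88 in DBA F1. Of the erythroid markers, Hba-a1 averaged 3.70 in the AKR F1 and 3.68 in the DBA F1 group, close to the arrays' lower quartile. The mean of 5 T cell genes was 6.99 to 7.17 in AKR F1 and 6.76 to 6.81 in DBA F1 (2 higher, Cd3e and Cd4), and that of 4 NK cell genes 5.93 to 6.04 in AKR F1 and 6.20 to 6.41 in DBA F1 (2 lower, Gzma and Gzmb). Of 8 B cell genes Cd79a was higher and Ms4a1 and Ebf1 were lower, and of 7 monocyte and macrophage genes C1qa and C1qb were higher. No other monocyte and macrophage gene passed: Ccr2 and Ctss differed by -0.50 and -0.11, and Cd14, Csf1r and Adgre1 by 0.18, 0.10 and 0.02. Elane was the 1 neutrophil gene past the test and Gata1 and Alas2 the erythroid ones, all higher. Among the erythroid genes that did not pass, Rhag and Epb42 differed by -0.24 and -0.22, with no overlap between the arrays. Slc4a1, Klf1, Ermap and Hba-a1, which did not pass either, had positive differences, of 0.02 to 0.31. Markers of skeletal muscle moved with the groups, 9 of 12 lower and none higher, with list means of 6.94 to 8.09 in AKR F1 and 8.88 to 11.74 in DBA F1. Measures of processing moved with them too. The 3' minus 5' index of control transcripts was 1.66 to 2.22 in AKR F1 and 1.44 to 1.54 in DBA F1, and the mean of the hybridization controls was 9.74 to 9.95 in AKR F1 and 10.27 to 10.72 in DBA F1. Their part in the results below was not tested beyond the fits given with the counts.

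Proteasome genes differed between the crosses in both directions and mostly by small amounts. Of the 42 genes, 7 were higher in AKR F1 (Psmb3, Psmb5, Psmb6, Psmb9, Psmd3, Psmd9 and Psme3) and 9 were lower (Psma1, Psma2, Psma3, Psma4, Psmc6, Psmd6, Psmd7, Psmd10 and Psmd12), and 26 did not pass. Psmd7 counts as lower by its brightest probe set only, since another of its probe sets was higher. Over all genes 9.2% were higher, 6.04% lower and 15.2% either. Among genes above the median probe set level, where 40 of the 42 members lie, 22.3% passed. Psme3 was the 1 member past the test that differed by more than 1.5-fold. The median difference of the members was 0.00, against 0.06 over all genes, and the median absolute difference was 0.27, against 0.16 over all genes and 0.23 over genes above that level. The arrays of the groups did not overlap for 25 of the 42 members (59.5%), against 36.7% of all genes and 5466 of the 11550 genes above that level. In bulk marrow, fewer cells of a type and less RNA per cell cannot be told apart.

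The split ran along the rings of the barrel. All 7 genes of the standard alpha ring had a negative difference, 4 of them past the test, with a median of -0.33. All 10 beta genes, constitutive and inducible together, had a positive difference, 4 of them past the test, with a median of 0.29. Over all genes 11110 of 18193 had a positive difference, as did 6662 of the 11550 above the median probe set level. On each array the median deviation of the alpha genes from their own 6-array means was -0.10, -0.24 and -0.13 in AKR F1 replicates 1 to 3, against 0.08, 0.19 and 0.19 in DBA F1. For the beta genes it was 0.08, 0.15 and 0.17 in AKR F1, against -0.12, -0.07 and -0.17 in DBA F1. No array of either group crossed to the other side in these medians. They show the values behind the differences above array by array and are no separate support. Over all genes the same median was 0.02, 0.05 and 0.02 in AKR F1, against -0.02, -0.03 and -0.02 in DBA F1. That is the direction of the beta genes, at a smaller size. The signs held in all 17 genes with quantile normalization and with median centring, and 6 or 7 alpha genes stayed negative and 9 or 10 beta genes positive in each fit that left out 1 array. With the 3' to 5' index as a covariate 7 alpha genes were negative and 9 beta genes positive, with the hybridization controls 5 and 10, and no member passed in these fits. The SE of the members was then 1.84 and 2.31 times as large (median). With the index, 6 of the 16 called members also had differences smaller by over 1.5 times: Psma1 (-0.25), Psma3 (-0.21), Psma4 (-0.24), Psmb6 (0.22), Psmd7 (-0.16) and Psmd9 (0.31). When probe sets were averaged per gene, 6 alpha genes were negative (median -0.13, 2 lower) and 9 beta genes positive (median 0.20, 3 higher). No alpha gene passed without AKR F1 replicate 2 or 3 or DBA F1 replicate 2, and no beta gene without any 1 of the AKR F1 arrays.

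**Figure D1:**
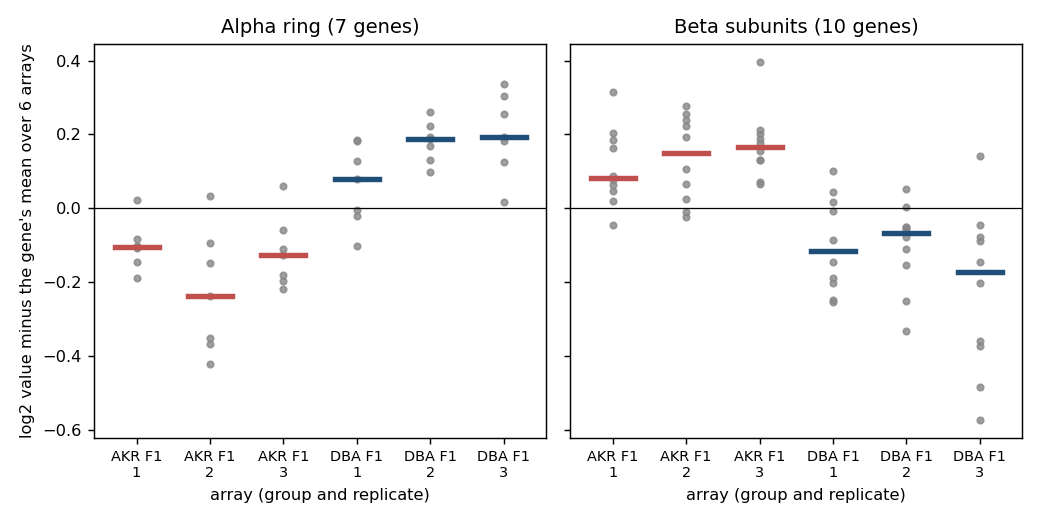
Each grey point is 1 gene on 1 array, as its log2 value minus that gene's mean over the 6 arrays, for the 7 alpha genes (left) and the 10 beta genes (right), and bars are medians (red AKR F1, blue DBA F1). The alpha medians are below 0 on all 3 AKR F1 arrays and above 0 on all 3 DBA F1 arrays, and the beta medians are the other way round.

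Among the alpha subunits, which form the gated outer rings, Psma1 had 10.60, 10.28 and 10.48 in AKR F1, against 10.88, 10.96 and 11.00 in DBA F1. Psma4 had 10.24, 9.97 and 10.14 in AKR F1, against 10.52, 10.56 and 10.59 in DBA F1. The AKR F1 arrays lay below all DBA F1 arrays in both genes, with replicate 2 the lowest. Psma1 fell by 0.50 (SE 0.10, limma adjusted p = 0.0185) and Psma4 fell by 0.44 (SE 0.10, limma adjusted p = 0.0204). Dimmer Psma1 probe sets above the median level differed by 0.22 and -0.16, neither past the test. Psma2 had 11.42, 11.22 and 11.46 in AKR F1, against 11.65, 11.76 and 11.91 in DBA F1, and Psma3 had 10.71, 10.56 and 10.61 in AKR F1, against 10.92, 10.99 and 10.98 in DBA F1. Again no array overlapped, and these genes fell by 0.40 (SE 0.11, limma adjusted p = 0.0385) and 0.33 (SE 0.09, limma adjusted p = 0.0346). Psma5, Psma7 and Psma6 differed by -0.17, -0.17 and -0.06, with arrays that overlapped. Psma8, the alpha subunit of the testis, averaged 4.83 in AKR F1 and 4.89 in DBA F1, and both averages lie below the median of every array. Its value on DBA F1 replicate 3, 5.36, was above that array's median of 5.19.

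Of the structural beta subunits, which carry no active site, Psmb3 had 10.32, 10.27 and 10.35 in AKR F1, against 9.96, 10.11 and 9.96 in DBA F1, a rise of 0.31 (SE 0.09, limma adjusted p = 0.0483). Its dimmer probe set differed by -0.06, and at the probe set level neither passed. Psmb3 also lost its call in all 6 fits that left out an array, with median centring, with the replicate block and with averaged probe sets. Psmb2 differed by 0.32 and Psmb4 by 0.19, in both cases with no overlap between the arrays but with a limma adjusted p of 0.0796 and 0.15. Psmb1 differed by 0.03.

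The constitutive catalytic subunits were higher in 2 of 3 cases. Psmb5, which carries the chymotrypsin-like activity, had 10.77, 10.76 and 10.77 in AKR F1, against 10.42, 10.49 and 10.20 in DBA F1. Psmb6, with the caspase-like activity, had 10.04, 10.22 and 10.17 in AKR F1, against 9.72, 9.71 and 9.92 in DBA F1. The arrays of the groups were apart in both genes, and the AKR F1 arrays of Psmb5 were nearly equal. Psmb5 was 1.32-fold higher (difference 0.40, SE 0.10, limma adjusted p = 0.0324) and Psmb6 1.29-fold higher (difference 0.36, SE 0.10, limma adjusted p = 0.0422). At the probe set level Psmb6 did not pass (limma probe set fit, adjusted p = 0.0508). Psmb7, with the trypsin-like activity, had 11.59, 11.52 and 11.62 in AKR F1, against 11.64, 11.49 and 11.40 in DBA F1, and these overlapped (difference 0.06, SE 0.09).

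The promoter windows of these called subunits are shown because both hold the core of the antioxidant response element, the motif bound by Nfe2l1 and related factors that raise proteasome genes when degradation is blocked. Windows run from 250 bases before to 50 bases after the start of the gene, from RefSeq on build GRCm38.p6, and the core searched was TGACNNNGC on both strands, shown in capitals. That of Psmb5 lies at chr14:54617946-54618245, minus strand, with the core from position -47 relative to the start, and that of Psmb6 at chr11:70525107-70525406, plus strand, with the core from position -9.
Psmb5: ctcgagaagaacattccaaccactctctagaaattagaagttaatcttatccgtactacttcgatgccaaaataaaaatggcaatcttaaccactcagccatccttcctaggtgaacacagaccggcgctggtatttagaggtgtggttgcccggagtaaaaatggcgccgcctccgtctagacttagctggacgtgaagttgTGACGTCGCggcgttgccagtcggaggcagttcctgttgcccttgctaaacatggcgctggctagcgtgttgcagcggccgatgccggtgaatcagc
Psmb6: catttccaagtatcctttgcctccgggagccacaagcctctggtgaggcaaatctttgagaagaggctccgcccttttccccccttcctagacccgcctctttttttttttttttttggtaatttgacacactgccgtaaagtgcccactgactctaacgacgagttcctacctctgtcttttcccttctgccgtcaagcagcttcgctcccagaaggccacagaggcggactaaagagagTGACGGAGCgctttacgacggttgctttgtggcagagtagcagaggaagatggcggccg
Windows were found for 35 of the 42 members (none for Psma8, Psmb1, Psmb2, Psmb7, Psmc3, Psmd3 and Psmd7), and 6 of these genes held the core, 17.1%, against 14.0% of all 27025 genes in the table. None of the 7 alpha genes of the standard ring held it, and of the beta genes neither did Psmb3, Psmb4, Psmb8, Psmb9 and Psmb10. Nfe2l1 itself differed by 0.25 (SE 0.11), which did not pass (limma adjusted p = 0.155). A match describes the letters of the window and is not evidence of binding.

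All 3 inducible subunits of the immunoproteasome had a positive difference, and 1 passed. Psmb9 had 9.89, 9.98 and 10.10 in AKR F1, against 9.75, 9.37 and 9.13 in DBA F1. Psmb8 had 9.93, 10.09 and 9.99 in AKR F1, against 9.85, 9.81 and 9.50 in DBA F1. Psmb10 had 9.17, 9.38 and 9.30 in AKR F1, against 9.16, 9.20 and 8.66 in DBA F1. DBA F1 replicate 3 was the lowest array for all 3 genes, as it was for Psmb5 and Psmb7. Of the 3 inducible genes, Psmb10 was the 1 whose groups overlapped. Psmb9 was 1.49-fold higher (difference 0.57, SE 0.15, limma adjusted p = 0.0388). Psmb8 differed by 0.28 (SE 0.11, limma adjusted p = 0.137) and Psmb10 by 0.28 (SE 0.15, limma adjusted p = 0.25). Without DBA F1 replicate 3 these became 0.43 for Psmb9, 0.17 for Psmb8 and 0.10 for Psmb10, none past the test. In that fit Psmb5 differed by 0.31 and did not pass either (limma adjusted p = 0.0557).

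Whether an inducible subunit moved more than the subunit it replaces was tested on each array as the difference of their log2 values. For Psmb9 minus Psmb6 this was -0.15 ± 0.08 in AKR F1 and -0.36 ± 0.41 in DBA F1 (mean ± SD, n = 3 each, two-sided exact permutation p = 0.6). Psmb10 minus Psmb7 was -2.29 ± 0.15 in AKR F1 and -2.50 ± 0.22 in DBA F1, and Psmb8 minus Psmb5 was -0.77 ± 0.08 in AKR F1 and -0.65 ± 0.07 in DBA F1 (n = 3 each, exact permutation p = 0.3 for each). After adjustment over these 3 pairs p was 0.6, 0.45 and 0.45 (exact permutation), and with 3 arrays against 3 no p under 0.1 can be reached. Only the change of each value between the groups can be read, since different probe sets do not share a scale. The arrays of the groups overlapped in all 3 pairs.

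Psmb9 and Psmb8 are interleaved with the peptide transporter genes Tap1 and Tap2 on chromosome 17, in the order Psmb9, Tap1, Psmb8, Tap2 of the RefSeq table. Tap2 had 8.41, 8.69 and 8.65 in AKR F1, against 8.09, 8.13 and 7.56 in DBA F1 (difference 0.66, SE 0.16, limma adjusted p = 0.0296). Tap1, which lies between the subunit genes, had 7.69, 8.14 and 8.03 in AKR F1, against 8.18, 7.73 and 7.51 in DBA F1, and overlapped (difference 0.15). Of 12 measured genes of antigen loading and its regulators, Tap2 was higher and Pdia3, a chaperone of the loading complex, and Erap1, the trimming peptidase, were lower by -0.65 and -0.33 (limma adjusted p = 0.0272 and 0.042), with a list median of 0.15. Irf1, the factor that drives the inducible subunits under interferon gamma, differed by 0.29 and did not pass (limma adjusted p = 0.193). Of 22 measured interferon-induced genes 11 were higher and none lower, with a median of 0.40. By p the first of these were Oas3, Ifi27l2a, Bst2, Oas1a and Ifit1, higher by 1.10, 0.93, 0.74, 0.95 and 0.66. Among those that did not pass, Ifit2, Stat2, Gbp3 and Mx1 had negative differences, of -0.30, -0.33, -0.15 and -0.06. Igtp, Gbp2 and Irgm1, which did not pass either, differed by 0.16, 0.11 and 0.09. The part of the interferon-induced genes' difference in that of the inducible subunits was not tested. Psmb5, Psmb6, Psmb7, Psmb9 and Psmb10 have 1 probe set each, and sequence differences between the strains at those probes were not analysed here.

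Of the activators, Psme3, the nuclear cap known as PA28 gamma, showed the largest difference of the 42 genes. It had 10.34, 9.92 and 10.05 in AKR F1, against 9.43, 9.52 and 8.82 in DBA F1, which is 1.80-fold higher (difference 0.85, SE 0.19, limma adjusted p = 0.0223). Its other well-measured probe set had 9.85, 9.61 and 9.68 in AKR F1, against 9.50, 9.62 and 9.61 in DBA F1, overlapped and differed by 0.14. The size of the Psme3 difference therefore depends on the probe set. Psme1, a subunit of the interferon-inducible cap, had 10.68, 10.68 and 10.79 in AKR F1, against 10.48, 10.31 and 9.86 in DBA F1. These did not overlap, and the difference of 0.50 (SE 0.15) did not pass (limma adjusted p = 0.0601). It passed without DBA F1 replicate 1, with quantile normalization, with the filter on dim probe sets, with the robust variance trend and with array weights, and in none of the 5 other fits that left out an array.

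Psme4, the large activator PA200, differed between its own probe sets. The brightest had 9.97, 10.21 and 10.23 in AKR F1, against 10.25, 10.09 and 10.24 in DBA F1, and overlapped (difference -0.05). Another had 8.61, 7.94 and 8.41 in AKR F1, against 9.16, 9.34 and 9.48 in DBA F1, differing by -1.01 (SE 0.17, limma probe set fit, adjusted p = 0.0112). This was the widest difference of any member probe set.

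**Figure D2:**
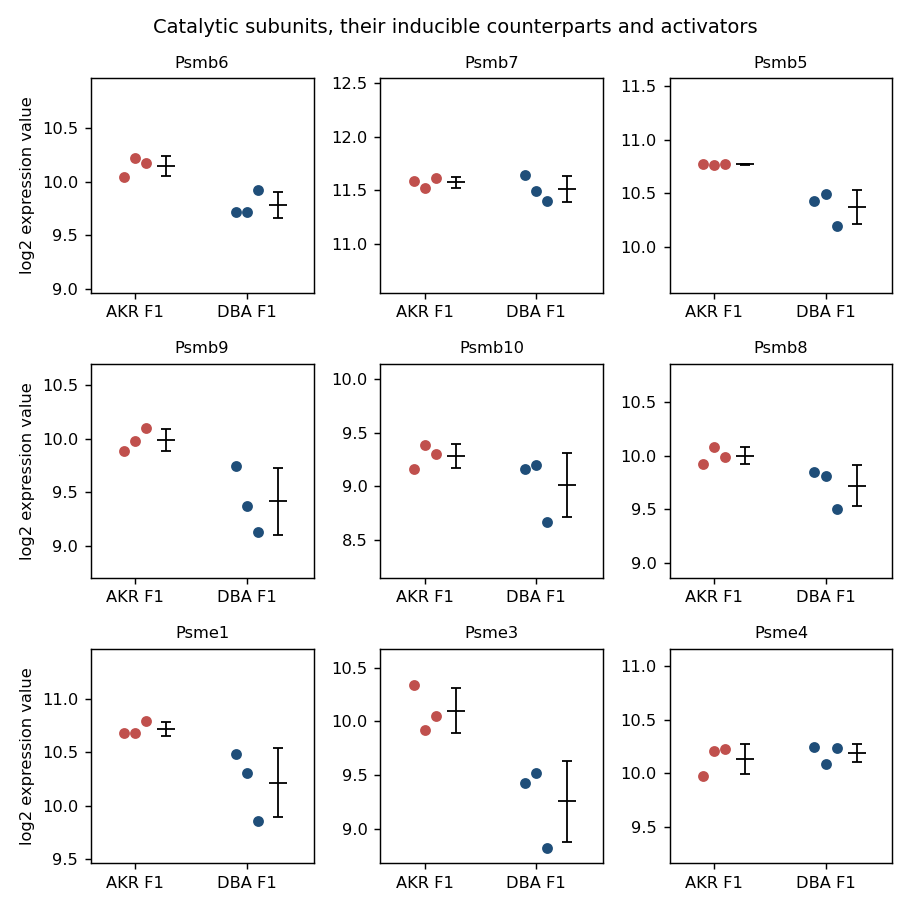
Log2 expression values of the constitutive catalytic subunits (top), the inducible subunits below the subunit each replaces (middle) and the activators (bottom), 1 point per array, with mean and SD beside (n = 3 per group, AKR F1 red, DBA F1 blue, all panels 2 log2 units high). Psmb5, Psmb6, Psmb9 and Psme3 are higher in AKR F1 past the test. DBA F1 replicate 3, the rightmost point, is the lowest in every panel except those of Psmb6 and Psme4.

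The ATPases of the base, which thread substrates into the barrel, had negative differences in 5 of 6 genes, 1 past the test, with a median of -0.17. Psmc6 had 9.95, 9.86 and 9.91 in AKR F1, against 10.30, 10.47 and 10.43 in DBA F1, and fell by 0.49 (SE 0.09, limma adjusted p = 0.0114). No array overlapped. In the probe set fit the 2 further Psmc6 probe sets passed as well, at -0.69 and -0.45, the second of these below the median level, so all 3 went the same way. Psmc1 differed by -0.25 with no overlap, Psmc4 by -0.32, Psmc2 by -0.10, Psmc3 by -0.04 and Psmc5 by 0.20, and none of these passed. With the hybridization controls as a covariate Psmc1, Psmc2, Psmc3 and Psmc4 had positive differences, of 0.05 to 0.21. Psmd1, Psmd2 and Psmd4, the base subunits that bind ubiquitin carriers or ubiquitin, differed by 0.23, 0.27 and 0.04, and none passed.

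Of the 8 lid genes 1 was higher and 3 were lower at the brightest probe set. Psmd3 had 9.49, 9.62 and 9.57 in AKR F1, against 9.04, 9.10 and 9.01 in DBA F1, 1.43-fold higher (difference 0.51, SE 0.09, limma adjusted p = 0.00956). Its arrays were far apart for their spread, and it was the 1 member that passed in all 6 fits that left out an array. Psmd12, a scaffold subunit of the same lid, went the other way, with 9.33, 9.25 and 9.26 in AKR F1, against 9.64, 9.86 and 9.91 in DBA F1 (difference -0.52, SE 0.10, limma adjusted p = 0.0134). Psmd6 had 10.35, 10.22 and 10.35 in AKR F1, against 10.78, 10.64 and 10.53 in DBA F1, with no overlap, and fell by 0.34 (SE 0.10, limma adjusted p = 0.0497, just under the threshold). The same probe set did not pass at the probe set level (limma probe set fit, adjusted p = 0.0603). Psmd14, the deubiquitinase of the lid, differed by -0.26 with no overlap and did not pass (limma adjusted p = 0.174). Psmd8, Psmd13 and Psmd11 differed by 0.20, 0.20 and 0.11.

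Psmd7, the partner of Psmd14 in the lid, was the 1 member with probe sets past the test in both directions. Its brightest had 8.60, 8.16 and 8.29 in AKR F1, against 8.79, 8.95 and 8.88 in DBA F1 (difference -0.52, SE 0.12, limma adjusted p = 0.0268). The next had 6.60, 6.63 and 6.49 in AKR F1, against 6.18, 6.18 and 6.12 in DBA F1 (difference 0.41, SE 0.09, limma probe set fit, adjusted p = 0.0207). Neither pair of groups overlapped, and the direction of the gene depends on the probe set.

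The chaperones that assemble the base were also split. Psmd9 had 8.73, 8.84 and 8.87 in AKR F1, against 8.34, 8.57 and 8.07 in DBA F1, 1.40-fold higher (difference 0.49, SE 0.13, limma adjusted p = 0.0398). Its next probe set, just above the median level, overlapped and differed by -0.03. Psmd10, known as gankyrin, had 8.0, 7.85 and 8.0 in AKR F1, against 8.23, 8.40 and 8.56 in DBA F1, and fell by 0.45 (SE 0.11, limma adjusted p = 0.0279). The groups were apart in both genes at the brightest probe set. Psmd5 differed by -0.10. Psmb11, the beta subunit of the thymic cortex, averaged 3.60 in AKR F1 and 3.81 in DBA F1, near the lower quartile of the arrays.

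**Figure D3:**
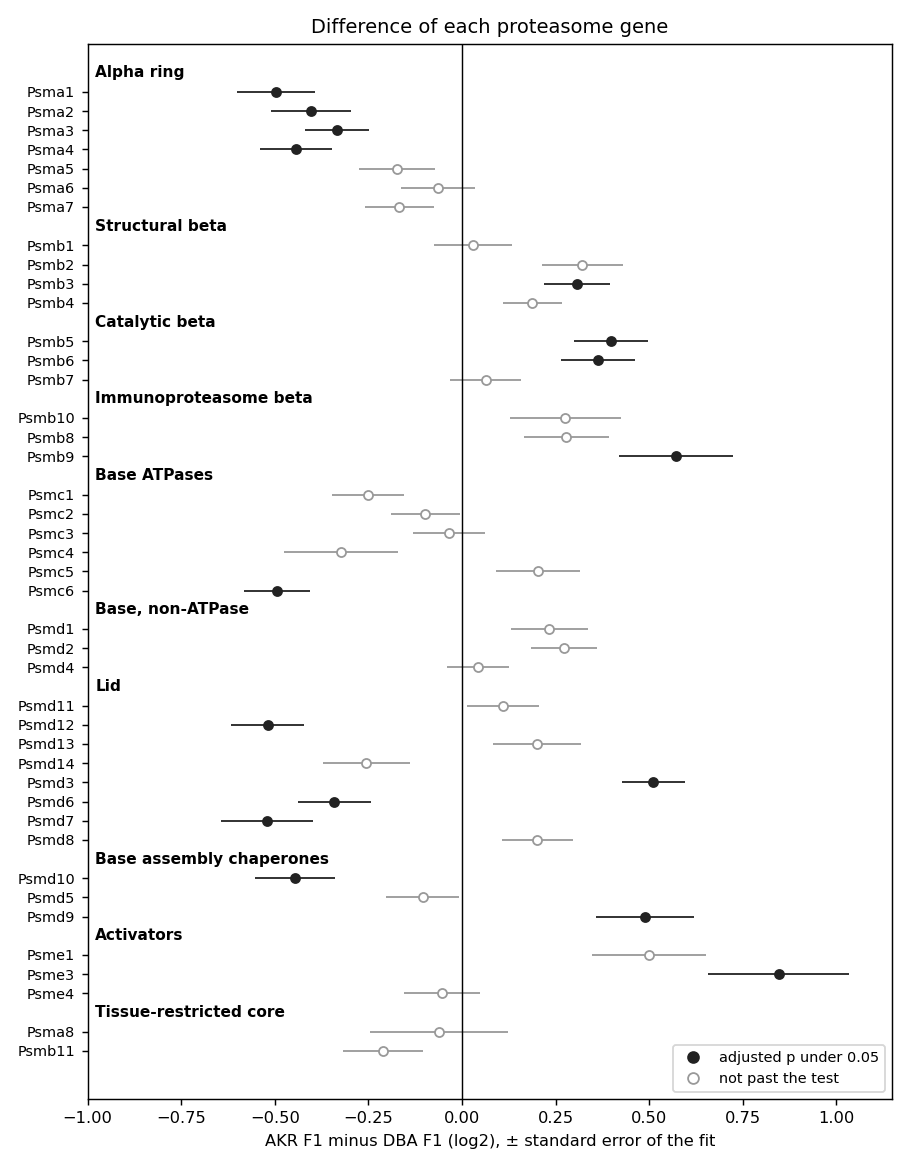
Difference AKR F1 minus DBA F1 (log2) of each of the 42 genes at its brightest probe set, with the standard error of the fit, grouped by place in the complex. Filled points passed the test (7 higher, 9 lower). The alpha ring lies left of 0, from -0.50 to -0.06, and the beta subunits right of it, from 0.03 to 0.57.

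The antioxidant response core was also found in the windows of members that were lower. That of Psmc6 lies at chr14:45329574-45329873, plus strand, with the core from position -227, and that of Psmd12 at chr11:107479278-107479577, plus strand, with the core from position -247, both far upstream compared with those of Psmb5 and Psmb6 above. These are shown to set them beside the catalytic subunits.
Psmc6: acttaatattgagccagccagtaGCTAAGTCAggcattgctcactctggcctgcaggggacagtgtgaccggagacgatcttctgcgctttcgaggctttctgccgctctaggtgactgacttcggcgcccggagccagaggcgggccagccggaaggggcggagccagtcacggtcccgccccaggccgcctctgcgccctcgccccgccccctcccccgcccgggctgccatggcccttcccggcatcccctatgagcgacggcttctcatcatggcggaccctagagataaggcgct
Psmd12: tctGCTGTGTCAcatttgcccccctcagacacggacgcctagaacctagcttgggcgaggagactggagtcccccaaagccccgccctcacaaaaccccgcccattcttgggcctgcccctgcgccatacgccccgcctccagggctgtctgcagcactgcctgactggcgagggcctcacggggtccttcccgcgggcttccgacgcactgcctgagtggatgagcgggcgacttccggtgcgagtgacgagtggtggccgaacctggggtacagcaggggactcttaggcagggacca
Of the 6 genes with the core, Psmb5, Psmb6 and Psmd9 were higher, Psmc6 and Psmd12 lower, and Psme4 did not pass. The cores of Psmd9 and Psme4 start at positions -31 and -7, so a core near the start was not confined to higher genes. The core of the interferon-stimulated response element, searched as GAAANNGAA on both strands, was in the windows of 6 members as well (Psmb3, Psmb4, Psmc2, Psmd4, Psmd9 and Psme1), 17.1%, against 9.76% of all genes with a window. It was not in the windows of Psmb8, Psmb9 and Psmb10.

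The 16 called members lay on 10 chromosomes. Chromosome 11 held 5 of them, of 8 members there, with Psmb3, Psmb6, Psmd3 and Psme3 higher and Psmd12 lower. Chromosome 14 held 3, of which Psmb5 was higher and Psmc6 and Psmd6 lower. Over all chromosomes 38.1% of members passed, against 15.2% of all genes and 22.3% of those above the median probe set level. The share of all genes past the test was not taken per chromosome, so these counts cannot show a cluster.

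At the level of probe sets, 6 of the 88 member probe sets were higher and 11 lower, against 5.57%, 6.73% and in all 12.3% of 45037 probe sets. Of the 42 genes 20 have a single probe set. Of the 22 others, 19 have a further probe set above the median level, and in 13 of these at least 1 such probe set had the opposite sign to the brightest. Over all member probe sets above that level, 11 of 14 for the alpha ring were negative and 11 of 14 for the beta subunits positive. The contrary ones included Psma3, with 5.79, 5.87 and 6.11 in AKR F1, against 5.14, 5.68 and 5.70 in DBA F1 (difference 0.41), and Psmb4, with 10.67, 10.69 and 10.80 in AKR F1, against 10.99, 11.22 and 10.86 in DBA F1 (difference -0.30). Neither overlapped and neither passed. Psmc4 likewise had probe sets at -0.32 and 0.27.

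**Figure D4:**
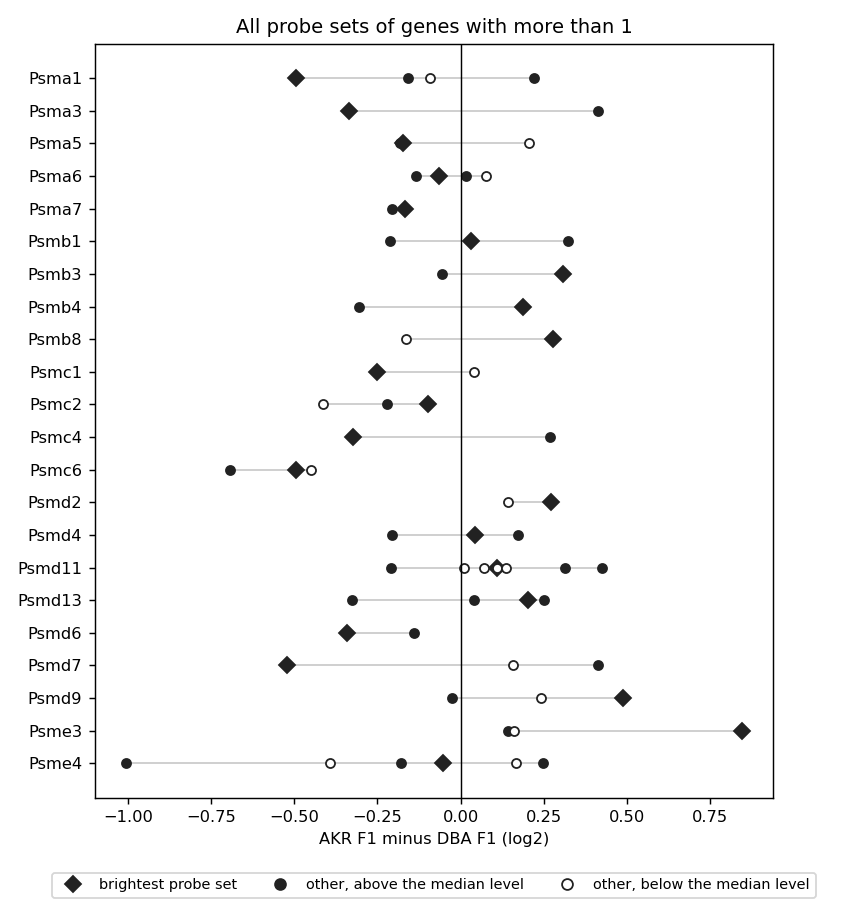
Difference AKR F1 minus DBA F1 (log2) at every probe set of the 22 genes with more than 1. Diamonds are the brightest probe sets, filled circles others above the median level and open circles others below it. Psmd7 and Psme4 spread the widest, Psmd7 from -0.52 to 0.41 and Psme4 from -1.01 to 0.25, and Psmc6 lies wholly left of 0.

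Partners of the proteasome outside the subunits were listed too: assembly factors, associated enzymes, shuttles and the factors behind its transcription. Of 31 listed genes 22 had a probe set with a single symbol, 3 of them were higher and 1 lower, with a median of -0.04. All 22 lie above the median probe set level. The share that passed, 4 of 22, lies between that of all genes, 15.2%, and that of genes above this level, 22.3%. None of the 5 ubiquitin and ubiquitin-activating genes was among those measured. Psmg4, an assembly chaperone of the alpha ring, had 7.90, 8.02 and 7.98 in AKR F1, against 7.50, 7.43 and 7.58 in DBA F1 (difference 0.46, SE 0.09, limma adjusted p = 0.0136). Ubqln4, a shuttle for ubiquitinated proteins, was higher by 0.59 and Psmf1, a proteasome inhibitor in vitro, by 0.45 (limma adjusted p = 0.0193 and 0.0334). Uchl5, a deubiquitinase of the base, was lower by -0.41 (limma adjusted p = 0.0358). The other chaperones Psmg1, Psmg2 and Psmg3 differed by 0.02, -0.29 and 0.26, Pomp, the maturation factor of the barrel, by 0.03, and none of them passed.

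How many members passed depended on single arrays. Instead of 16 members, 6, 1 and 1 passed when AKR F1 replicate 1, 2 or 3 was left out, and 13, 6 and 9 when DBA F1 replicate 1, 2 or 3 was, while the share of all genes past the test moved between 3.77% and 17.9%. Of the 42 members, 39 to 42 kept their sign in these fits. When probe sets were averaged per gene 10 passed, and Psma1, Psmb3, Psmd9 and Psme3 differed by -0.13, 0.12, 0.23 and 0.38, of which Psme3 passed. No member passed in limma with a covariate, whether the hybridization controls, the 3' to 5' index or the muscle list mean, and 2, 3 and 51 of all genes did.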

How the data were processed

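Total RNA of snap-frozen bone marrow was extracted with Trizol, labelled with biotin and hybridised to Affymetrix arrays, as the labels' protocols state. Values were used as the authors deposited them, on the log2 scale, for 45101 probe sets on 6 arrays with nearly equal medians. RMA and MAS5 appear in the submitters' processing notes, with no word on which made these values. All tests left out the 64 control probe sets. The platform annotation gave 1 symbol to 34945 of 45037 probe sets, several to 932 and none to 9160.

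Groups and replicate numbers came from the sample titles. The test was limma 3.58.1 (R 4.3.3), AKR F1 minus DBA F1, two-sided, on 6 arrays (4 residual degrees of freedom), with Benjamini-Hochberg adjustment, over 18193 genes (brightest single-symbol probe set by mean over all arrays) or over all probe sets. Exact permutation tests used scipy 1.17.1. The fit was tested on simulated data. The technical covariates came from control probe sets: the 3' to 5' index (3' less 5' signal, averaged over actin, Gapdh and poly-A spikes) and the mean of the hybridization controls (BioB, BioC, BioD, Cre). Values on every array were given for the inducible subunits, those they replace, the activators and other members past the test, and differences for the rest. Of other lists, genes past the test with the smallest p were named. Further probe sets and Tap1 were chosen after their values were seen, and the split into alpha and pooled beta genes was not a planned test. The members and lists were chosen with earlier results of these data known. Alternatives were another normalization, a filter on dim probe sets, other variance estimates, weights per array, a block for the replicate number, covariates, other thresholds and leaving out each array. The number of arrays limits the precision. No per-sample column was left unused.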

Additional observations from a re-analysis of the deposited data

How the results depend on the processing

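Quantile normalization, median centring, array weights, a robust variance trend and a filter on dim probe sets kept the counts of higher and lower members within 1.5 times of 7 and 9. The 2771 genes, 7 higher and 9 lower members, 4 related genes, and 6 higher and 11 lower member probe sets became 526, 1, 0, 0, 0 and 1 at an adjusted p of 0.01, and 237, 0, 0, 0, 0 and 0 in limma's test against a 1.2-fold change. At an adjusted p of 0.1, 4243 genes and 12 higher probe sets passed. With the hybridization controls, the 3' to 5' index or the muscle list mean as a covariate 2, 3 and 51 genes passed in limma, and the 5 other counts were 0 each. Leaving out 1 array gave 685 to 3248 genes, 1 to 5 higher and 0 to 8 lower members, 0 to 3 related genes, 0 to 5 higher and 2 to 11 lower probe sets. Without replicate 1 of both groups, chosen after seeing the data, 2 members and 2 probe sets were higher. When probe sets were averaged per gene 5 members were lower, and the differences of Psma3, Psmd7 and Psmb4 reversed to 0.0397, 0.0155 and -0.0583. That of Psme4 (-0.05) reversed to 0.0248 with array weights, 0.0499 with the muscle covariate and 0.0557 without both replicates 1, and ran from -0.1038 to 0.0283 (without AKR F1 replicate 1) when 1 array was left out. No other call of the 16 changed sign in any alternative. Of the members not past the test, 2 changed sign with the 3' to 5' index (Psmb1, Psmd13), 6 with the hybridization controls (Psma5, Psma6, Psmc1, Psmc2, Psmc3, Psmc4), 3 with the muscle covariate (Psmb1, Psmd11, Psme4), 2 with array weights (Psma8, Psme4), 0 to 3 when 1 array was left out and 2 without both replicates 1 (Psmb1, Psme4). The cause of these changes was not tested, except that fewer arrays or a covariate leave fewer degrees of freedom.

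The replicate numbers did not pair the arrays: the deviations of same-numbered arrays correlated at 0.01, -0.06 and 0.07 over genes. With the replicate block 3 members were higher and 7 lower, 2 related genes passed, 3 member probe sets were higher and 10 lower and 2357 of all genes passed.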
